A study of Mus musculus with 15 samples.

Results

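Early lung hyperplasias of the subtype labelled H1 were compared with normal lung cells in mice that carry a K-RasG12V knock-in allele, an oncogenic form of K-Ras made from the gene's own locus. The H1 group held the 3 arrays whose source name gives that subtype and the normal group the 8 arrays titled as normal samples, so 11 of the 15 arrays of the series entered the group means. The other 4 arrays were lesions of a second subtype, H2. They entered no group mean of this comparison, but shared the estimate of the spread and the choice of each gene's probe set. All 3 groups came from frozen lung sections taken 3 months after the mice were infected in vivo with an adenovirus that delivers Cre recombinase. Normal cells and lesions were cut from the same sections by laser capture microdissection, in which chosen cells are lifted from a section under the microscope. The controls therefore came from lungs with the same knock-in allele and the same viral infection. The allele also makes a colour marker by which cells that express it can be seen, and each lesion held about 500 cells. The sources used here do not state the basis of the split into H1 and H2, the cell types captured as normal, or the strain, sex, age and number of the mice, and do not tie samples to animals. Regions cut from 1 animal are not independent, and p-values over regions are too small to the extent that regions of the same group shared animals. Animals shared between the groups would form pairs, which the fit could not use.

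K-Ras is a small GTPase that passes growth factor signals to the RAF, MEK and ERK kinases. In lung, adenoma and adenocarcinoma driven by mutant K-Ras are known to arise mainly from alveolar type 2 (AT2) cells, the epithelial cells that make surfactant, and to a lesser extent from club cells of the airway. Active ERK switches on its own brakes, among them the Sprouty and Spred proteins and the dual specificity phosphatases, so the transcripts of these brakes are commonly read as a sign of ERK output. Alveoli also hold thin alveolar type 1 (AT1) cells, capillary endothelium, fibroblasts and macrophages, and a captured piece of normal lung can contain any of them.

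Values are log2 signals, normalised by the authors, and a difference of 1 is a factor of 2. Each gene was represented by its brightest probe set on average over the arrays, which gave 18193 genes. A gene was called at a Benjamini-Hochberg adjusted p under 0.05 in limma. It fits a linear model to each gene and draws on all genes to estimate the spread. Arrays are named by the group and the replicate number in their labels. The correlation of gene values between H1 arrays was 0.883 to 0.945, and between H1 and normal arrays 0.676 to 0.919. The array normal 2 stood apart, with correlations of 0.511 to 0.790 to the other normal arrays, which correlated at 0.688 to 0.928 among themselves. Within an array, gene values had a standard deviation of 1.31 to 1.49 in H1, and from 1.14 in normal 2 to 1.67 in normal 3. By exact two-sided permutation over all assignments of these arrays, this spread did not separate H1 from normal (p = 0.752), and neither did the 3′ minus 5′ control probe sets of Actb (p = 0.909) or Gapdh (p = 0.970; adjusted over the 3 measures, 0.970 for each). For the results that normal 2 moved most, the value without it is also given.

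Only 2 of 18193 genes were called between H1 lesions and normal cells by limma, a share of 0.011%, and both, Meg3 and Mpzl2, rose. None was called lower. Without normal 2 the count of calls was again 2, and Meg3 and Mpzl2 were those genes.

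Meg3, a long non-coding RNA transcribed from the maternal copy of the imprinted Dlk1-Dio3 region and known as a growth restraining gene, had the larger difference of the 2. Its promoter as RefSeq places it, shown because Meg3 led the comparison, lies on the plus strand of GRCm38.p6 at chr12:109540746-109541045 and runs from 250 bases before the gene start to 50 after it. Capitals mark TGACGTCA, the cAMP response element palindrome, which reads the same on both strands.
Meg3: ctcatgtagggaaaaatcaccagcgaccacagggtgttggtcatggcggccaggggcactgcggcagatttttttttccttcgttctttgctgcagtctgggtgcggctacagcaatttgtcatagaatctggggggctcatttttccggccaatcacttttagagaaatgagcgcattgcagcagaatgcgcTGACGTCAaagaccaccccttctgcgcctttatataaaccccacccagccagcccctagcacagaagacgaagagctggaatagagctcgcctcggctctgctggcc
The element occupied bases 194 to 201 of this window and ended 49 bases before the gene start. It occurred in 588 of 32851 promoters of the same length (1.79%), and the other of the 2 Meg3 promoters in that table held no match. These arrays measure transcript, so the match describes the sequence only.

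The Meg3 signal was 8.00, 8.10 and 8.28 in the 3 H1 lesions, against 3.86 at the lowest, 4.34 at the median and 6.03 at the highest of the 8 normal arrays. The H1 lesions lay close together and every one of them was above every normal array, of which normal 1 was the highest by far. The difference was 3.60 ± 0.36 (SE), or 12.1-fold, with a limma adjusted p of 0.000503. Meg3 was called under each of the 15 fits that left out 1 array. Meg3 has 11 probe sets on this array, and 7 of them were higher in H1. The groups did not overlap for 3 of the 11, at differences of 3.60, 2.58 and 2.40, and the lowest of the 11 gave -0.52. The probe set brightest in normal cells, with a mean of 4.98 there, gave -0.41. With the mean of all 11 probe sets in place of the brightest, the difference was 0.80 and the call was lost (limma adjusted p = 0.992). The increase was thus seen with some Meg3 probe sets and not with others. In the H2 lesions Meg3 lay higher still, from 9.92 to 10.96, and did not overlap with H1; the difference between the subtypes, -2.33 ± 0.40 (SE) for H1 minus H2, was not called over all genes (limma adjusted p = 0.235).

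Mpzl2, an immunoglobulin-like adhesion protein of epithelial cell contacts, was the other called gene. Its signal was 6.89, 5.73 and 5.85 in the H1 lesions, against a lowest of 2.70, a median of 3.21 and a highest of 5.01 in normal cells. All 3 lesions exceeded all 8 normal arrays, and the highest normal value belonged to normal 2. The difference was 2.83 ± 0.42 (SE), or 7.13-fold, with a limma adjusted p of 0.0430. All 3 Mpzl2 probe sets were higher in H1, by 2.83, 1.25 and 0.35. H1 and H2 lesions differed in Mpzl2 by 0.11 with a 95% interval from -0.89 to 1.11 (limma adjusted p = 0.940), and the H2 values of 5.80 to 6.63 lay among those of H1. The call stood near the threshold. It was lost on leaving out any 1 array other than normal 2 or normal 3, with adjusted p from 0.0547 without H2 1 to 0.253 without H1 4, and in the fit to the 11 arrays alone (adjusted p = 0.194).

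**Figure D1:**
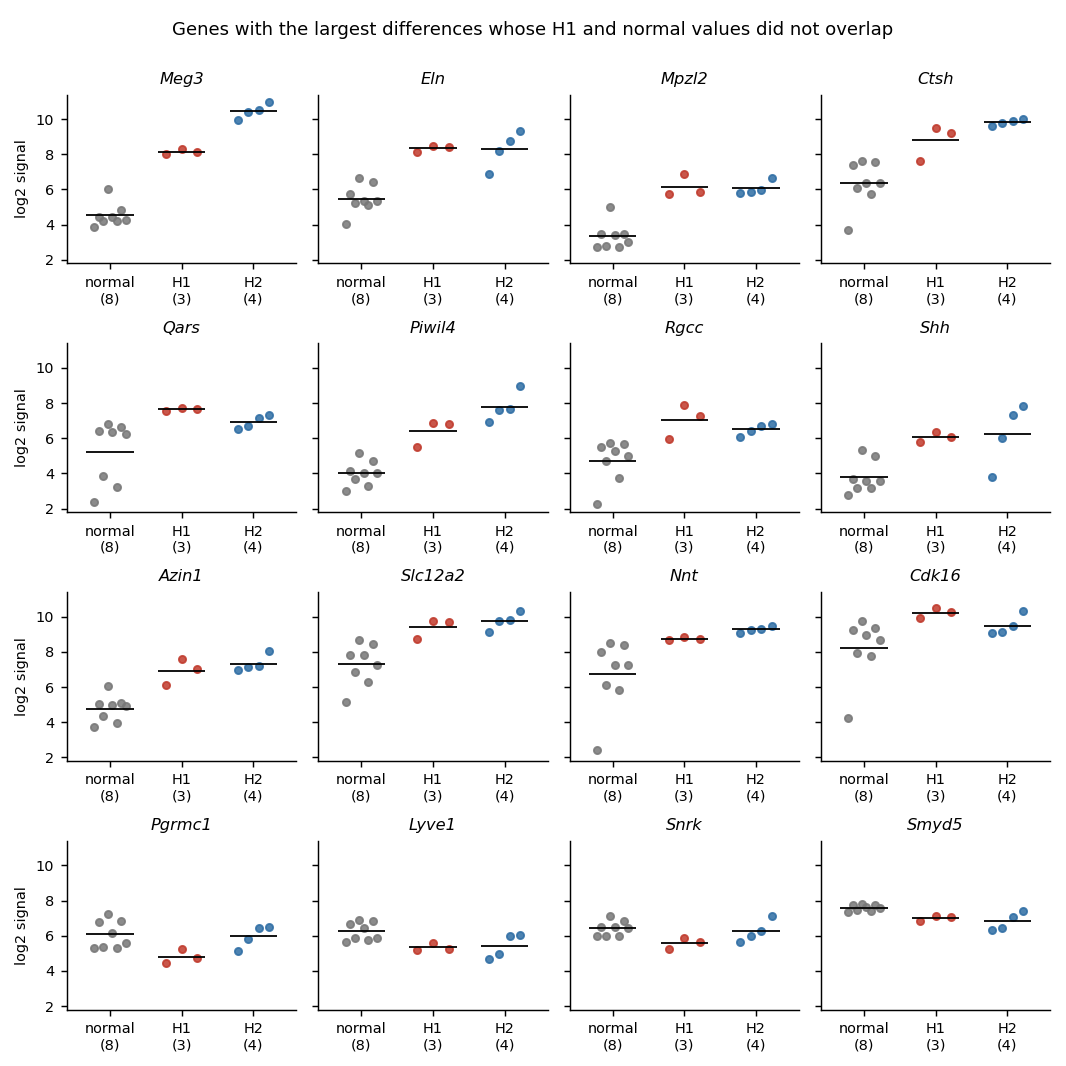
Log2 signal of the 12 genes named as higher and the 4 named as lower in H1, 1 point per array, with the mean of each group as a line (8 normal, 3 H1 and 4 H2 arrays). Meg3 at 8.00 to 8.28 in H1 stands between normal cells, at 6.03 or less, and H2 lesions, at 9.92 or more, whereas Mpzl2 is at one level in both lesion subtypes; Nnt and Cdk16 each have 1 normal array far below the others.

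Beyond these genes, the separation of H1 from normal cells was thin. At an unadjusted limma p under 0.05, 336 genes were higher (1.85%) and 434 lower (2.39%). In 254 genes (1.4%) the 3 H1 values lay outside the range of the 8 normal values, 91 of them higher (0.5%) and 163 lower (0.896%). Over all genes the median difference was -0.05 and 43.5% were higher in H1. In the same fit 615 genes (3.38%) were called between the 4 H2 lesions and these normal arrays.

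The genes that separated upward were brighter than those that separated downward. The 91 higher genes had a median mean of 4.85 in normal cells and 6.16 in H1, and in 49 of them (53.8%) the H1 mean reached 6. The 163 lower genes went from a median of 4.36 to 3.73, and only 7 of them (4.29%) had a normal mean of at least 6. For scale, the median over all genes was 4.39 in normal cells and 4.34 in H1. Among the 2366 genes whose mean over all arrays reached 6, 68.0% were higher in H1 with a median difference of 0.23, against 39.8% and -0.07 among the 15827 genes under 6. The mean used for this split held lesion values, which by itself puts genes high in lesions above 6 more often. The array spread moved with this split. The median of the bright genes relative to the normal mean was -0.97 in normal 2 and 0.90 in normal 3, the arrays of narrowest and widest spread among the normal ones, and -0.03, 0.35 and 0.46 in H1 2, H1 3 and H1 4. Without normal 2 the median difference of the bright genes was 0.09, with the spread as a covariate 0.12 and without normal 3 0.32.

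**Figure D2:**
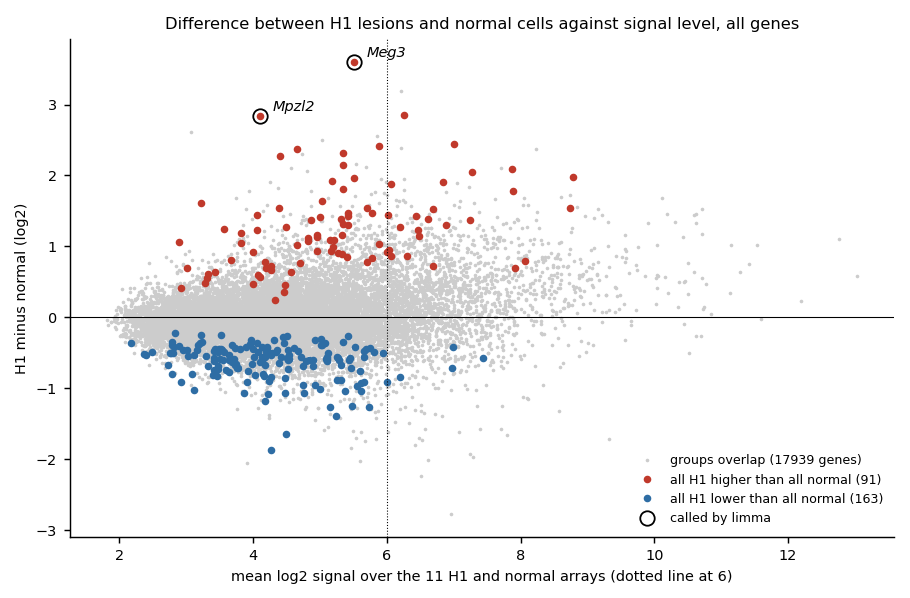
H1 minus normal difference (log2) of each of 18193 genes against its mean log2 signal over the 11 arrays compared; coloured points are the 91 and 163 genes whose H1 values lie wholly above or below the normal values, circles the 2 called genes. Genes that separate upward extend to signals well beyond 6, the dotted line, while nearly all that separate downward lie below it.

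By the naming rule, 48 higher genes and 4 lower genes were eligible, with separated groups, an unadjusted p under 0.05 and a mean of at least 6 in the higher group. The 12 largest of the former and all of the latter are described here. Apart from Meg3 and Mpzl2, none passed the adjusted threshold: Eln had a limma adjusted p of 0.222, Piwil4 and Azin1 of 0.351, and the others of 0.997. Their values therefore describe these arrays. Ctsh, Azin1 and Slc12a2 were called with array weights (limma adjusted p of 0.0201, 0.0186 and 0.0444) and with the array spread as a covariate (0.0243, 0.0265 and 0.0229), and Piwil4 with array weights (0.00630).

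Eln, which encodes the elastin of elastic fibres, had signals of 8.45, 8.40 and 8.15 in H1, against 4.04, 5.35 and 6.66 at the lowest, median and highest normal array. The lesions lay within a narrow band well above all normal cells, and the difference was 2.85 ± 0.50 (SE). The second Eln probe set, dimmer, gave 0.11. The fit without normal 3 called Eln (limma adjusted p = 0.0441), as did 3 of the 13 alternative settings. Eln was at 6.86 to 9.32 in H2 lesions and did not separate them from H1. Of the 16 elastic fibre genes measured, 8 were higher and 8 lower, with a median of 0.00. Besides Eln, the latent TGF-beta binding protein Ltbp2 was higher by 0.96 ± 0.40 (SE) at an unadjusted p under 0.05. In the other direction at that level were Efemp1, a fibulin of the matrix, at -2.03 ± 0.82 (SE), and Emilin1, an elastin interface protein, at -0.75 ± 0.28 (SE). Efemp1 was at -1.16 without H1 3, and the second Emilin1 probe set gave -0.03. The values of Ltbp2, Efemp1 and Emilin1 all overlapped with normal.

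Ctsh, the lysosomal protease cathepsin H that trims surfactant protein B in AT2 cells, had signals of 7.63, 9.50 and 9.22 in H1, against 3.68, 6.36 and 7.59 in normal cells. H1 2 lay only just above the highest normal array, normal 3, and the other lesions lay well above it. The difference was 2.44 ± 0.65 (SE), and the second probe set gave 1.65. Slc12a2, the sodium, potassium and chloride importer of secretory epithelium, had signals of 8.71, 9.76 and 9.69 in H1 against 5.15, 7.52 and 8.69 in normal cells. H1 2 again touched the top of the normal range, and all 3 probe sets were higher, by 1.77 to 2.23. Azin1, which protects ornithine decarboxylase from degradation and so favours polyamine synthesis, had signals of 6.12, 7.00 and 7.60 against 3.70, 4.96 and 6.04. The difference was 2.15 ± 0.43 (SE), with 2.14 from another of its probe sets and 0.02 from the remaining one.

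Piwil4, an Argonaute family protein of the germline small RNA pathway, had signals of 5.49, 6.88 and 6.78 in H1 against 3.00, 4.04 and 5.16 in normal cells. The difference was 2.38 ± 0.47 (SE) by this probe set and 0.13 by the other. Rgcc, a regulator of the cell cycle, had signals of 5.98, 7.86 and 7.26 against 2.24, 5.10 and 5.71, a difference of 2.31 ± 0.61 (SE), with 0.41 by the second probe set. In Ctsh, Slc12a2, Azin1, Piwil4 and Rgcc alike, H1 2 was the lowest of the lesions. Shh, the ligand of the hedgehog pathway, had signals of 5.78, 6.35 and 6.06 against 2.79, 3.56 and 5.36, a difference of 2.28 ± 0.69 (SE). The second Shh probe set gave -0.19.

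Each of the remaining 3 genes had 1 or more normal arrays far dimmer than the others. Qars, the glutaminyl-tRNA synthetase, had signals of 7.56, 7.71 and 7.65 in H1 against 2.35, 6.29 and 6.78 in normal cells. Its normal values fell into a dim set, normal 2, normal 4 and normal 8, and 5 arrays from 6.24 upward, and the 3 other probe sets gave -0.25 to 0.52. Nnt, the mitochondrial transhydrogenase that makes NADPH, had signals of 8.68, 8.86 and 8.73 against 2.44, 7.25 and 8.48, and its 2 other probe sets gave -0.22 and -0.18. Cdk16, a cyclin-dependent kinase of the PCTAIRE group, had signals of 10.48, 9.91 and 10.28 against 4.25, 8.80 and 9.76, and its 4 other probe sets gave -0.39 to -0.07. For Shh, Nnt and Cdk16 the probe set shown was therefore the only one that was higher in H1.

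The 4 lower genes differed by less. Pgrmc1, a haem binding membrane protein, had signals of 4.75, 5.24 and 4.47 in H1 against 5.32, 5.86 and 7.26 in normal cells, a difference of -1.26 ± 0.44 (SE). Lyve1, the hyaluronan receptor of lymphatic endothelium and some macrophages, had signals of 5.24, 5.57 and 5.21 against 5.67, 6.15 and 6.89. Its difference was -0.91 ± 0.35 (SE) and its second probe set gave -1.43. In both genes the highest lesion, H1 3, came close to the lowest normal array. Snrk, a kinase related to SNF1, had signals of 5.89, 5.24 and 5.62 against 5.99, 6.46 and 7.11, and its second probe set gave -0.04. Smyd5, a SET and MYND domain protein, had signals of 7.12, 6.85 and 7.10 against 7.38, 7.60 and 7.80, the narrowest normal range of the 4, and all 3 of its probe sets were lower.

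Gene lists were then read by their counts and medians, against the 43.5% higher and the median of -0.05 over all genes. AT2 transcripts, which bear on the lung label, were present in both groups: Sftpc and Sftpa1, surfactant protein genes, had signals above 8 in each of the 11 arrays but normal 2. Of the 19 AT2 and surfactant genes measured, 18 were higher in H1, with a median of 1.11. The normal mean was under 6 in 8 of the 19. None was called, and 2 were higher at an unadjusted p under 0.05, against 1.85% of all genes. These were Ctsh and the lipid transporter of lamellar bodies, Abca3. The groups separated only for Ctsh, against 0.5% of all genes that separated upward. Relative to the normal mean, the list median was 0.17 in H1 2, 1.39 in H1 3 and 1.57 in H1 4. Normal arrays ran from -2.04 in normal 2 to 2.06 in normal 3, so every lesion lay inside the normal range. Without normal 2 the median of the list was 0.63. In such pieces of tissue, more cells of a type and more RNA per cell cannot be told apart.

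Single AT2 genes followed this pattern. Abca3 had signals of 5.86, 7.58 and 7.80 in H1 against 4.08, 5.81 and 7.24 in normal cells, with H1 2 in the middle of the normal range and the others above it. Its other 2 probe sets gave -0.24 and 0.00. Lpcat1, which makes the phosphatidylcholine of surfactant, had signals of 7.98, 9.84 and 10.04 against 5.78, 7.54 and 9.99, and all 5 of its probe sets were higher, by 0.35 to 1.69. Surfactant protein B, Sftpb, had signals of 7.94, 8.47 and 8.57 against 4.14, 7.05 and 9.27. The most used AT2 marker, surfactant protein C, was added after its values were seen: Sftpc had signals of 10.20, 11.36 and 12.31 in H1 and ran from 4.87 in normal 2 to 13.41 in normal 3. Its difference of 1.35 had a 95% interval from -1.31 to 4.00, and became 0.62 without normal 2 and 0.84 without H1 4. Sftpa1, added likewise, was at 10.49, 11.58 and 11.94 against 5.77 to 12.36, a difference of 1.68 ± 0.97 (SE).

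**Figure D3:**
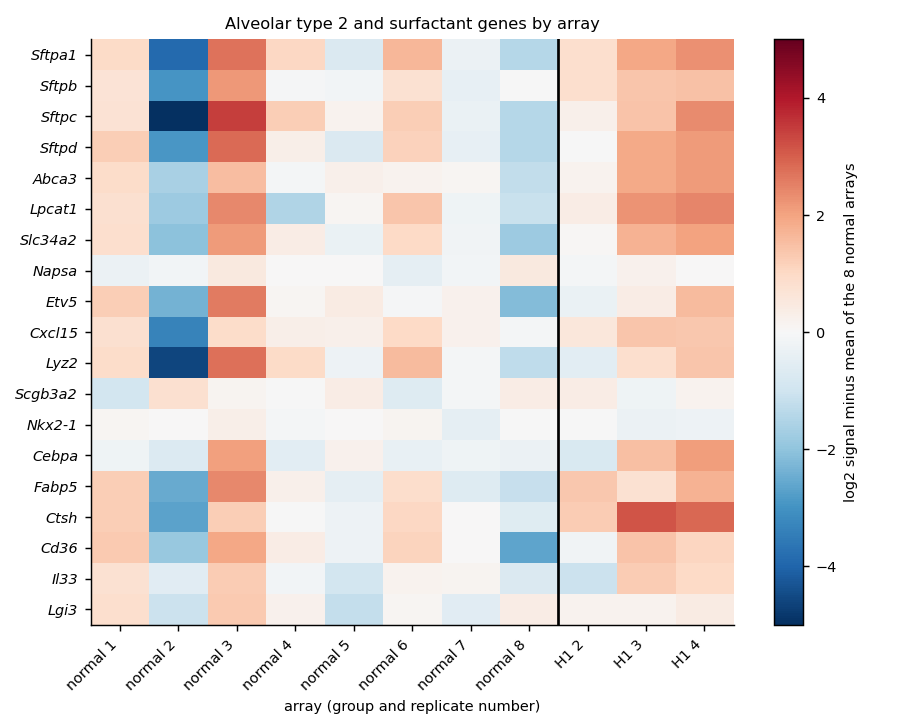
Log2 signal minus the mean of the 8 normal arrays for the 19 AT2 and surfactant genes (rows) in each normal and H1 array (columns), red above and blue below the normal mean. H1 3 and H1 4 are red for most genes and H1 2 is pale, while normal 2 is blue and normal 3 as red as the lesions.

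AT1 genes leaned the other way. Of 14 measured, 4 were higher in H1 and 10 lower, with a median of -0.54, and -0.87 without normal 2 and -0.15 without H1 2. Their per-array medians were -1.04, -0.24 and -0.05 in H1 and spanned -2.53 to 1.82 in normal cells. Rtkn2, a gene enriched in AT1 cells, had signals of 4.51, 3.56 and 4.73 in H1 against 4.24, 5.65 and 7.43, a difference of -1.41 ± 0.53 (SE). Igfbp2, which binds insulin-like growth factors, differed by -0.50 ± 0.23 (SE) at dim signals, and by -0.22 without H1 2. The AT1 water channel Aqp5 had the opposite sign, at 7.33, 7.21 and 7.47 against 3.88, 6.25 and 8.19. Both alveolar epithelial lists thus overlapped with normal cells, with medians of opposite sign.

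Among 11 club cell genes, 6 were higher and 5 lower, with a median of 0.11, which became 0.17 without normal 2 and -0.14 without H1 3. The aldehyde dehydrogenase Aldh1a1 was at 4.37, 4.95 and 6.15 in H1 against 4.15, 7.19 and 9.09, a difference of -2.01 ± 0.83 (SE), and the cytochrome Cyp2f2 at 4.67, 4.36 and 4.55 against 2.63, 3.64 and 4.47. These well known club cell genes differed in opposite directions, and each overlapped with normal. With the array spread as a covariate Aldh1a1 was called lower (limma adjusted p = 0.0112).

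Endothelial genes were mostly lower in the lesions. Of 20 measured, 18 were lower, with a median of -0.52 (-0.59 without normal 2) and with 16 of the 20 at a normal mean under 6. The per-array medians were -0.60, -0.47 and -0.20 in H1, so that H1 2 and H1 3 lay below the normal range of -0.46 to 0.77 and H1 4 inside it. Tek, the receptor of angiopoietins, had signals of 6.22, 6.28 and 7.17 in H1 against 5.91, 8.53 and 9.88 in normal cells. Only normal 2 and normal 4 were as low as any lesion. The difference in Tek was -1.58 ± 0.70 (SE), and in Emcn, the endothelial sialomucin endomucin, -0.82 ± 0.37 (SE). None of the 20 was called, and 2 of them, Tek and Emcn, were lower at an unadjusted p under 0.05, against 2.39% of all genes.

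Of 20 fibroblast genes, 13 were lower, with a median of -0.15 (-0.25 without normal 2). Itga8, an integrin subunit of alveolar fibroblasts, had signals of 7.62, 5.61 and 6.55 in H1 against 7.36, 8.27 and 9.07 in normal cells. Only H1 2 reached into the normal range. The difference was -1.66 ± 0.47 (SE), with -1.44 by the second probe set, and Itga8 was lower still in H2, at 4.28 to 6.13. Inmt, a methyltransferase of lung stroma, had signals of 5.71, 5.67 and 6.05 against 5.37, 7.29 and 9.16. Of the leukocyte lists, the median was -0.03 over 13 alveolar macrophage genes, -0.01 over 11 T and NK cell genes, -0.16 over 8 neutrophil genes and -0.11 over 9 mast cell and basophil genes. The median was 0.00 over 11 monocyte and interstitial macrophage genes, -0.06 over 8 dendritic cell genes and -0.03 over 8 B and plasma cell genes. In the T and NK cell list 2 genes were lower at an unadjusted p under 0.05, against 2.39% of all genes. The mast cell and basophil list and the B and plasma cell list each held 1 such gene. In the monocyte and interstitial macrophage list 1 gene was higher at that level, against 1.85% of all genes. Mean signals of the alveolar macrophage and the T and NK cell list ran from 4.48 to 4.99 and from 3.81 to 4.22 across the H1 arrays. The median over genes of the H1 mean was 4.11 and 3.88 in these lists, against 4.34 over all genes. The part of cell makeup in the differences of this section was not tested.

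Genes induced by ERK divided. Of 25 measured, 16 were higher and 9 lower, with a median of 0.13 (0.02 without H1 4) and with 22 of the 25 at a normal mean under 6. At an unadjusted p under 0.05, 4 were higher and 1 lower, against 1.85% and 2.39% of all genes, and none was called. The 4 were the Ras and ERK brakes Spred1, Spry2 and Dusp6, and Phlda1. Spred1 had signals of 7.63, 7.38 and 7.28 in H1 against 4.31, 5.59 and 6.81 in normal cells. All lesions exceeded all normal arrays, and all 8 Spred1 probe sets were higher, by 0.24 to 2.20. The difference was 1.88 ± 0.52 (SE).

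Phlda1, a pleckstrin homology domain protein induced by growth factors, had signals of 5.26, 6.12 and 5.13 in H1 against 2.90, 3.91 and 4.72, also without overlap, a difference of 1.54 ± 0.43 (SE). Spry2, a Sprouty brake, had signals of 5.13, 6.91 and 6.41 against 2.66, 4.61 and 5.58, so that H1 2 lay among the normal arrays. Its difference was 1.78 ± 0.54 (SE), and 0.17 by its second probe set. Dusp6, the phosphatase that inactivates ERK, had signals of 6.03, 7.43 and 7.71 against 3.66, 5.90 and 6.63, and again H1 2 alone overlapped. Its difference was 1.61 ± 0.57 (SE).

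Ier3, an immediate early gene named after its values were seen, lay on the other side. Its signals were 5.49, 5.40 and 5.15 in H1 against 5.46, 6.25 and 7.97 in normal cells. The lesions were at the bottom of the normal range, with a difference of -1.26 ± 0.45 (SE). In the H2 lesions Ier3 was at 6.50 to 7.55, and H1 minus H2 was -1.44 ± 0.51 (SE; limma adjusted p = 0.333).

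**Figure D4:**
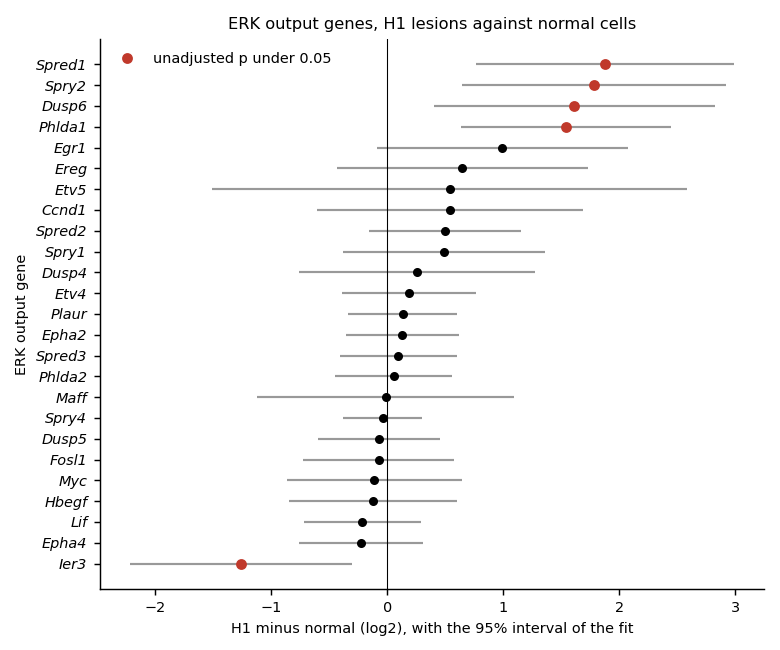
H1 minus normal difference (log2) of the 25 ERK output genes with the 95% interval of the limma fit; red points have an unadjusted p under 0.05. Spred1, Spry2, Dusp6 and Phlda1 lie between 1.54 and 1.88 and Ier3 at -1.26, while the intervals of the other 20 genes include 0.

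Among 28 genes of epithelial junctions and keratins, 20 were higher in H1 and the median was 0.25 (0.06 without H1 4). Without normal 2, 17 of the 28 were higher, with a median of 0.27. Mpzl2 was the only call among them (1 of 28, against 0.011% of all genes). At an unadjusted p under 0.05, 4 were higher and 1 lower, against 1.85% and 2.39% of all genes. The groups separated upward for 3, Mpzl2, Marveld3 and Cdh1, against 0.5% of all genes. Without normal 2 they separated upward for 3 and downward for 1, against 132 and 259 of 18193 genes. Marveld3, a tight junction protein, had signals of 5.35, 3.92 and 3.91 in H1 against 1.83, 2.55 and 3.68, near the bottom of the array's scale, and its other 2 probe sets gave -0.44 and -0.22. Crb3, an apical polarity protein, had signals of 6.79, 7.42 and 5.61 against 3.43, 5.43 and 5.75, and its other 2 probe sets gave -0.42 and -0.04. Cgn, the tight junction protein cingulin, was at 3.91, 3.90 and 4.58 against 4.39, 4.95 and 5.69, a difference of -0.92 ± 0.31 (SE) and of -0.02 by its other probe set.

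Of 3 general epithelial genes added after their values were seen, Cdh1, which encodes E-cadherin, was the clearest. It had signals of 7.05, 7.36 and 7.51 in H1 against 4.25, 6.23 and 7.02, so that H1 2 exceeded the highest normal array by little. Epcam was at 7.49, 7.82 and 8.07 against 3.86 to 8.30, and the simple keratin Krt8 at 5.36, 5.34 and 6.34 against 3.36 to 6.70. In H2, Krt8 lay at 7.03 to 7.85 without overlap with H1, and H1 minus H2 was -1.85 ± 0.60 (SE; limma adjusted p = 0.319).

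The neighbours of Meg3 in the imprinted Dlk1-Dio3 region were read from the 4 genes measured. Rian, another maternally expressed non-coding RNA, had signals of 7.97, 7.28 and 7.59 in H1 against 4.09, 6.57 and 6.94 in normal cells. The groups did not overlap, the lowest normal value belonged to normal 1, and the difference was 1.38 ± 0.83 (SE; limma adjusted p = 0.997), with 3 of 4 probe sets higher. In H2 Rian was spread from 4.91 to 10.45. Mirg, also a maternal transcript, was at 5.28, 4.67 and 5.36 against 4.02 to 5.71, and Dlk1, the paternally expressed gene of the region, at 3.96, 3.72 and 3.11 against 3.68 to 4.03, all of them dim. The list median was 0.81, and this was the only 1 of 41 lists for which all 3 H1 array medians (1.07, 0.45 and 0.93) lay above every normal array (-0.40 to 0.24); Meg3 itself is 1 of its 4 genes. For the other 40 lists the H1 and normal arrays overlapped.

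Among transcription factors of lineage and progression, 11 of 18 were higher, with a median of 0.08. Id2, an inhibitor of helix-loop-helix factors and a marker of distal lung progenitors, had signals of 6.51, 6.84 and 7.12 in H1 against 4.43, 5.27 and 6.12. The groups separated by this probe set, with a difference of 1.55 ± 0.41 (SE), but the other 2 probe sets of Id2 gave -0.83 and -0.19.

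Among metabolic lists, lipid and cholesterol synthesis had a median of 0.01 over 24 genes, 13 of them higher. Its leading member Scd1, the stearoyl-CoA desaturase of AT2 lipid synthesis, had signals of 8.98, 10.51 and 10.39 in H1 against 5.40, 7.39 and 9.90. The second Scd1 probe set gave 2.25 beside 2.38 ± 0.71 (SE), and H1 2 alone overlapped with normal cells. Scd1 was called higher with array weights (limma adjusted p = 0.0436) and with the array spread as a covariate (adjusted p = 0.00126). Acsl4, which activates long polyunsaturated fatty acids, had signals of 7.30, 8.65 and 8.58 against 5.25, 6.21 and 8.09, and all 3 of its probe sets were higher, by 1.41 to 1.77.

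NRF2 target genes had 15 of 18 members higher and a median of 0.17, with per-array medians of -0.02, 0.39 and 0.23 inside the normal range of -0.56 to 0.67. The list median was 0.87 over the 8 of its genes with a mean of at least 5 in a group, and 0.27 without normal 1. That filter also admits a gene on its lesion mean alone, so the 0.87 depends in part on the values compared. The cystine importer Slc7a11 was the 1 member at an unadjusted p under 0.05, at 3.84, 3.15 and 3.68 against 2.46 to 3.16, which is dim, and its second probe set gave 0.02. Ribosomal protein genes were higher in 16 of 17 cases, with a median of 0.71, and respiratory chain genes in 14 of 19, with a median of 0.46. None was called in either list, and only Ndufa1, a subunit of complex I, passed an unadjusted p under 0.05, at 7.27, 7.66 and 7.15 against 4.34, 6.06 and 7.75. These lists moved with the array spread: the ribosomal median was -1.83 in normal 2 and 1.63 in normal 3, and 0.28, 0.76 and 1.09 in the lesions. Without normal 2 their medians were 0.44 and 0.18, and on dropping the 2 narrowest normal arrays 0.19 and -0.09.

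Among proliferation genes, DNA replication genes had 12 of 25 higher and a median of -0.08, and mitosis genes 8 of 23 higher and a median of -0.19, with 22 and 23 of them at a normal mean under 6. Both medians depended on the arrays and genes taken. That of DNA replication was 0.03 without H1 2, and that of mitosis was -0.10 without normal 3. Over the 12 DNA replication genes with a mean of at least 5 in a group the median was 0.48. That filter also admits a gene on its lesion mean alone, so the 0.48 depends in part on the values compared. Rrm2, the small subunit of ribonucleotide reductase, had signals of 7.77, 6.00 and 5.15 in H1 against 3.09, 4.22 and 5.42. H1 2 and H1 3 exceeded all normal arrays and H1 4 did not, and the other 2 probe sets gave -0.11 and 0.65. Mcm4, part of the replicative helicase, was at 4.91, 6.36 and 6.11 against 3.18, 4.91 and 6.15, and at 6.57 to 7.62 in H2, and its second probe set gave 0.00 for H1 minus normal.

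MHC class I and interferon genes were lower in 18 of 23 cases, with a median of -0.38 and 19 of the 23 at a normal mean under 6. Their per-array medians were -0.16, -0.37 and -0.24 in the lesions and -0.36 to 0.90 in normal cells, and without normal 3, the highest, the list median was -0.18. Gbp2, an interferon-induced GTPase, had signals of 4.12, 4.07 and 4.89 in H1 against 3.99, 5.47 and 6.75. The difference was -1.10 ± 0.47 (SE), with -0.78 by the second probe set. Ifit3, an interferon-induced antiviral protein, was at 5.20, 4.18 and 4.58 against 5.01, 5.48 and 6.34, so that H1 2 alone overlapped.

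Of 20 inflammatory mediators of epithelium, 12 were higher, with a median of 0.17. Lcn2, the iron scavenging lipocalin made by injured epithelium, had signals of 5.94, 5.19 and 5.77 in H1 against 2.92, 3.57 and 5.25. Without normal 3, whose value was the 5.25, no normal array exceeded 3.96. The difference in Lcn2 was 1.91 ± 0.50 (SE). Csf2, the cytokine GM-CSF on which alveolar macrophages depend, was at 4.61, 4.82 and 4.88 against 3.52, 4.00 and 4.84, a difference of 0.74 ± 0.28 (SE).

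**Figure D5:**
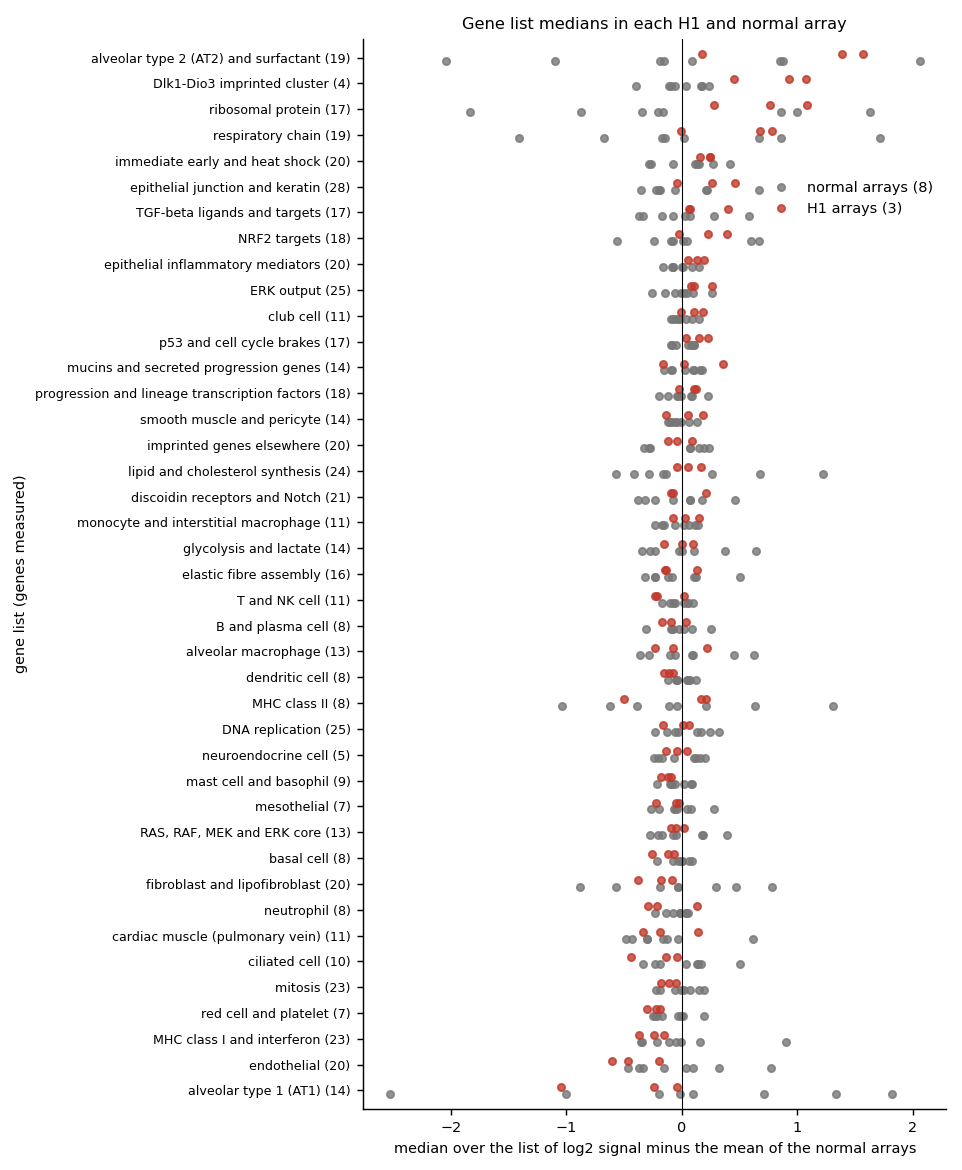
Median over each of 41 gene lists of the log2 signal minus the mean of the normal arrays, 1 point per array (red, 3 H1 arrays, and grey, 8 normal arrays). Lists are ordered by the median over their genes of the H1 minus normal difference. The red points overlap with the range of the grey ones for every list but the 4-gene Dlk1-Dio3 list, and the grey points of the AT1, AT2, ribosomal and respiratory lists spread widest.

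Set against the H2 lesions, H1 differed in 1 called gene (0.0055%), Muc4, a membrane mucin of epithelial surfaces. Muc4 was at 6.88, 6.77 and 6.40 in H1, between the normal range of 5.30 to 6.26 and the H2 range of 8.26 to 8.97, with no overlap on either side. H1 minus H2 was -2.01 ± 0.27 (SE; limma adjusted p = 0.0349) and H1 minus normal 0.87 ± 0.24 (SE; adjusted p = 0.997). The other 2 Muc4 probe sets gave H1 minus normal differences of -0.11 and -0.02. For this and every other gene, H1 minus H2 was read from the brightest probe set alone. At an unadjusted p under 0.05, 891 genes were higher in H1 than in H2 (4.9%) and 1349 lower (7.41%), and 3313 genes (18.2%) did not overlap between these 7 lesions. If the subtypes were assigned from these same profiles, such counts are not independent evidence of a difference. Among 7 arrays, groups also fail to overlap by chance more often than among the 11 of H1 and normal. The 18.2% is therefore not comparable with the 1.4% between H1 and normal cells.

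The collagen receptor kinase Ddr1 also lay apart between the subtypes but not between H1 and normal cells. Ddr1 was at 5.70, 6.00 and 6.05 in H1, inside the normal range of 4.03 to 7.75, whereas H2 was at 7.62 to 8.18. H1 minus normal was 0.04 ± 0.74 (SE), with a 95% interval from -1.52 to 1.60, and 7 of the 8 Ddr1 probe sets were lower in H1. The sign of this difference turned negative with the mean of all probe sets, with the most variable probe set, with the array spread as a covariate, and on dropping the narrowest normal arrays. H1 minus H2 was -2.07 ± 0.83 (SE; limma adjusted p = 0.352).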

How the data were processed

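Total RNA from 15 laser-captured lung samples was amplified and hybridised to Affymetrix GeneChip arrays, 1 array each. Per the submitters' processing notes, the authors used affy and RMA, and the deposited values are log2 signals; the annotation build of the arrays is not given in the sources used here. The table held 45101 probe sets, among them 64 controls. By the platform annotation 34945 had 1 gene symbol, 932 several and 9160 none, and only the first were used. Each gene was represented by its brightest probe set on average over the 15 arrays, which gave 18193 genes.

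One fit with limma 3.58.1 in R 4.3.3 (lmFit and eBayes) held the groups normal (8), H1 (3) and H2 (4), and the contrasts H1 minus normal and H1 minus H2 were tested two-sided with Benjamini-Hochberg adjustment over all genes. The fit was tested on simulated data. The number of arrays limits the precision. The p-values set each difference against the spread between these samples, which are not tied to animals. A total of 41 gene lists named 673 genes, of which 602 were measured and 16 stood in more than 1 list. The genes named are those called, up to 12 in each direction by size among genes with separated groups, an unadjusted p under 0.05 and a mean of at least 6 in the higher group, up to 4 of a list by lowest p, and Ddr1. The comparison, the lists and the genes were chosen with earlier results of these data known. Promoters are RefSeq's; Mpzl2 is named without one. The 13 alternative settings and 15 fits without 1 array are given in the closing section.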

Additional observations from a re-analysis of the deposited data

Results flagged for a closer look

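Of 84 groups of values tested with Dixon's criterion, 10 held a sample far from the others, and chance alone gives about 5% of groups. In the normal cells, Meg3 was at 6.03 in normal 1, against 3.86 to 4.81 in the other normal arrays, and the H1 values were all above it. Mpzl2 was at 5.01 in normal 2, against 2.70 to 3.48. Rian was at 4.09 in normal 1, the array with the highest Meg3, against 5.83 to 6.94. Lcn2 was at 5.25 in normal 3, against 2.92 to 3.96.

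In 4 further genes the array that stood apart was low. Nnt was at 2.44 in normal 4, against 5.83 to 8.48. Cdk16 was at 4.25 in normal 2, against 7.75 to 9.76. Crb3 was at 3.43 in normal 2, against 5.03 to 5.75. Cdh1 was at 4.25 in normal 2, against 6.07 to 7.02. The MHC class I and interferon list stood high, with a median of 0.90 in normal 3, against -0.36 to 0.16. Of the 9 groups of normal values in which a sample stood apart, 4 concerned normal 2, the array that also correlated least with the others.

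In the H2 lesions, Mpzl2 was at 6.63 in H2 6, against 5.80 to 5.94. Between the lesion subtypes, Muc4 differed by -2.01 for H1 minus H2, the 1 gene called by limma in that comparison.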

How the results depend on the processing

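The 2 genes called higher became 0 with the mean of all probe sets, 17 with array weights, 0 with the replicate block, 1 with only the 11 arrays compared and 15 with the array spread as a covariate; leaving out 1 array gave 1 to 5. The 0 genes called lower became 1 with array weights and 6 with the spread covariate. The replicate block was not the design, since the sources do not tie samples to animals. Deviations of gene values in lesions and normal cells of the same number correlated at 0.38, 0.13 and -0.14 for H1 2, H1 3 and H1 4. The best matching normal array was normal 2 for H1 2, its own number. For H1 3 and H1 4 it was another number, normal 1 (0.16) and normal 3 (0.28). With the block Meg3 was at 3.96 (limma adjusted p = 0.126) and Mpzl2 at 2.67 (adjusted p = 0.191). Averaging all probe sets gave 1.47 for Mpzl2 (adjusted p = 0.436). Ddr1 reversed to -0.18 with the mean of all probe sets, -0.20 with the most variable one, -0.18 with the spread covariate and -0.49 on dropping the 2 narrowest normal arrays, and ran from -0.22 to 0.31 when 1 array was left out. Of the 17 list medians followed, 24 values over the settings and 10 on leaving out 1 array moved by more than the spread between H1 arrays. Id2 reversed to -0.83 with the most variable probe set. The other 58 genes kept their sign under each alternative that measured them. The cause of these changes was not tested, apart from the smaller number of arrays or other probe sets by construction. Most genes lay near the low end of the signal scale, where differences have little signal behind them.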
